A study of Mus musculus with 12 samples.

Results

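The genes described here are 36 genes of myeloid cells and antigen presentation, chosen by name as a list of macrophage, phagocyte and class II genes. The list was drawn up with earlier results of these data known. A count above the share of all genes is therefore not independent evidence. All 36 had a probe set with a single gene symbol in the kidney expression table, out of 19938 genes measured in all. The list was read on 12 whole-transcript arrays of total kidney RNA from female mice, 4 arrays in each of 3 groups. KL null mice, labelled as null for klotho and with the strain label 129/SvEv/C57BL/6, received 100 µl saline. Wild-type mice of the strain label C57BL/6 received 500 ng per g body weight recombinant FGF23 (WT FGF23) or 100 µl saline (WT vehicle). All injections were intraperitoneal, the mice had been on standard diet for 5 to 8 weeks, and kidneys were taken 1 hour later. The labels call the wild types littermates of the KL null mice but give another strain. Genotype and strain label go together here, so their parts in any KL null difference cannot be told apart. The labels state neither the age nor whether each array holds a mouse of its own, so p-values measure the spread between these arrays.

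Klotho is the co-receptor through which the bone hormone FGF23 signals in the kidney, and mice without it develop high phosphate, soft-tissue calcification and a syndrome that resembles early ageing. Kidney macrophages derive from embryonic precursors and from circulating monocytes, depend on the growth factor receptor CSF1R, and take up and digest immune complexes, dying cells and crystals. Class II molecules load peptides from digested proteins in the endosome and present them to CD4+ T cells.

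Values are log2 signals, on which a difference of 1 is a doubling. Errors are SD over 4 arrays, and adjusted p-values come from limma with Benjamini-Hochberg adjustment over all 19938 genes, with 0.05 as the threshold. The 15 kidney epithelial genes measured had group means of 7.16 to 12.78 in KL null, 7.29 to 12.88 in WT FGF23 and 7.40 to 12.93 in WT vehicle arrays. Kl was at 9.72 ± 0.07 in KL null and 10.61 ± 0.13 in WT vehicle arrays (log2 difference -0.89, 1.85-fold lower, adjusted p = 1.75e-05). Its signal in KL null was lower but stayed above the array medians of 6.15 to 6.29. No probe set was tested against background, and where its probes lie relative to the altered part of the gene was not analysed here. This signal therefore cannot tell a reduced transcript from the loss of a working one. The SD of the log2 values on an array was lowest in WT FGF23 replicates 1 and 2 (2.166 and 2.167) and in KL null replicates 1 and 2 (2.195 and 2.217), against 2.23 to 2.281 on the other 8 arrays. Calls that changed without these arrays are given with the genes or in the paragraphs on arrays.

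In KL null kidneys, all 6 genes grouped as lysosomal and effector, both integrin genes and all 3 C1q chains of the list rose. Of the 7 genes grouped as lineage 0 rose, and of the 4 class II genes 0 passed. This split follows the grouping used here. The myeloid markers Cd68, Lyz2 and Itgam rose and are grouped as effectors or integrins. The lysosomal gene Laptm5 did not pass and is grouped as lineage. With array spread as a covariate, Ly86 and Laptm5 of the lineage group and H2-Aa and H2-Eb1 of class II also rose. Of the 36 genes, 18 rose, 1 fell (Csf1r) and 17 did not pass, against WT vehicle. Over all genes 8.01% passed: 3.58% rose and 4.44% fell, or 713 and 885 genes, with a split of 453 and 1369 when each array was centred on its median. The median log2 difference was 0.57 for the 36 genes and 0.02 for all genes. In 15 of the 36 all KL null arrays lay above all WT vehicle arrays, against 6.35% of all genes, and in 1 all lay below, against 7.44%. After FGF23, 0 of the 36 passed, against 0.0853% of all genes (0.0802% higher and 0.00502% lower). The array-by-array map of deviations from WT vehicle shows both patterns. In a kidney extract, a higher number of cells of a type and more RNA per cell cannot be told apart.

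**Figure D1:**
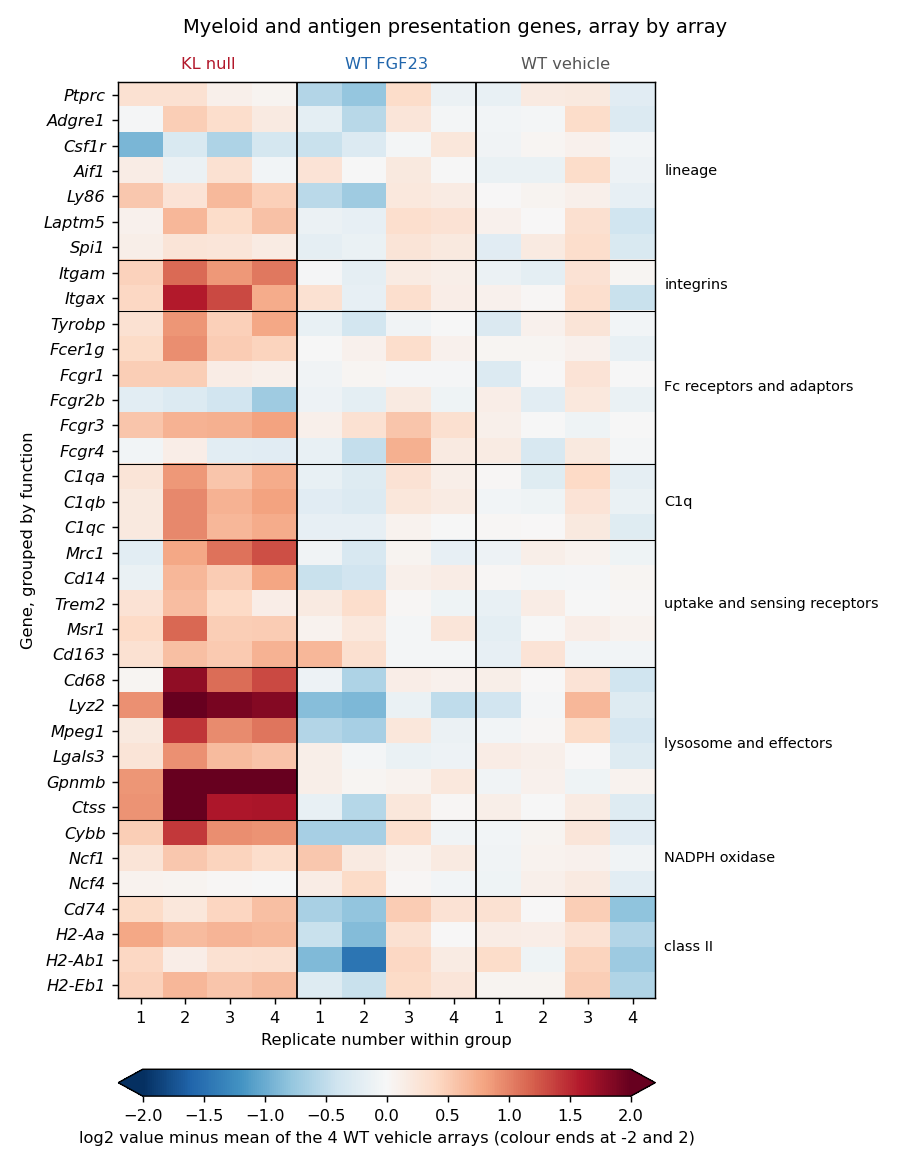
Log2 value of each of the 36 genes (rows, grouped by function) on each of the 12 arrays (columns, by group and replicate number), minus the gene's mean over the 4 WT vehicle arrays. Red is above that mean and blue below, with colours ending at -2 and 2. The deepest red lies in KL null replicates 2 to 4 at the lysosomal and effector genes, and blue lies in WT FGF23 replicates 1 and 2 and WT vehicle replicate 4 at the class II genes.

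All 6 genes grouped as lysosomal and effector rose in KL null, with a median log2 difference of 1.32. Gpnmb, a transmembrane glycoprotein of macrophages with a heavy lysosomal load, was at 5.90, 8.99, 8.27 and 8.24 in KL null replicates 1 to 4. It was at 5.13, 5.05, 5.09 and 5.23 in WT FGF23 replicates 1 to 4 and at 4.95, 5.11, 4.93 and 5.08 in WT vehicle replicates 1 to 4. All 4 KL null arrays were above all 8 wild-type arrays, and replicate 1 stood well below the other 3. The log2 difference from WT vehicle was 2.83 (SE 0.432), a 7.12-fold increase (adjusted p = 0.00107), the largest of the 36.

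Ctss, the endosomal protease cathepsin S that trims the invariant chain from class II, was at 9.18, 10.46, 9.90 and 9.91 in KL null replicates 1 to 4. It was at 8.13, 7.71, 8.51 and 8.31 in the WT FGF23 and 8.40, 8.27, 8.45 and 8.02 in the WT vehicle replicates. The KL null arrays did not overlap either wild-type group, and the gene was 2.98-fold higher than in WT vehicle (log2 difference 1.58, SE 0.217, adjusted p = 0.000486). Lyz2, the macrophage and neutrophil lysozyme, was at 8.56, 9.83, 9.54 and 9.48 in the KL null replicates. In WT FGF23 replicates 1 to 4 it was at 6.79, 6.74, 7.51 and 7.14, and in WT vehicle replicates 1 to 4 at 7.26, 7.61, 8.30 and 7.39. The groups again did not overlap, and Lyz2 was 3.28-fold higher than in WT vehicle (log2 difference 1.71, SE 0.262, adjusted p = 0.0011).

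Cd68, a lysosomal membrane glycoprotein used as a macrophage marker, was at 6.29, 8.02, 7.36 and 7.57 in KL null replicates 1 to 4, against 6.37, 6.26, 6.52 and 5.85 in the WT vehicle replicates. KL null replicate 1 lay inside the WT vehicle range and the other 3 above it, with a 2.08-fold increase over the 4 arrays (log2 difference 1.06, SE 0.28, adjusted p = 0.0304). Mpeg1, the pore-forming perforin-2 of phagocytes, had the same arrangement, at 7.36, 8.58, 8.10 and 8.22 in KL null against 7.11, 7.18, 7.52 and 6.82 in WT vehicle arrays (log2 difference 0.91, adjusted p = 0.0293). Both calls rest on few arrays. Cd68 lost its call without WT vehicle replicate 1, 2, 3 or 4 (adjusted p = 0.0625, 0.0576, 0.0531 and 0.0789) and without KL null replicate 2, 3 or 4 (0.0943, 0.0798 and 0.0765). Mpeg1 lost it without WT vehicle replicate 1, 2 or 4 (0.0767, 0.0547 and 0.0761) and KL null replicate 2, 3 or 4 (0.0943, 0.077 and 0.0701). Lgals3, the sugar-binding protein galectin-3, which kidney epithelium also makes, rose 1.51-fold, at 8.68 ± 0.27 in KL null and 8.08 ± 0.18 in WT vehicle arrays (n = 4, limma adjusted p = 0.0099).

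Both integrin genes rose. Itgam encodes CD11b, the alpha chain of complement receptor 3, and was at 5.68, 6.34, 6.08 and 6.27 in KL null replicates 1 to 4. It was at 5.19, 5.03, 5.37 and 5.33 in the WT FGF23 and 5.09, 5.01, 5.50 and 5.25 in the WT vehicle replicates, so the KL null arrays were above all others (1.84-fold over WT vehicle, log2 difference 0.88, SE 0.141, adjusted p = 0.00159). Itgax, which encodes CD11c of dendritic cells and some macrophages, was at 5.66, 6.83, 6.56 and 5.98 in the KL null and 5.32, 5.27, 5.57 and 4.80 in the WT vehicle replicates, 2.02-fold higher (log2 difference 1.02, adjusted p = 0.0103). Their shared beta chain Itgb2, which is not among the 36, rose 1.82-fold (adjusted p = 0.00962), with KL null replicate 2 at 7.39 and the other 3 at 6.60 to 6.67.

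**Figure D2:**
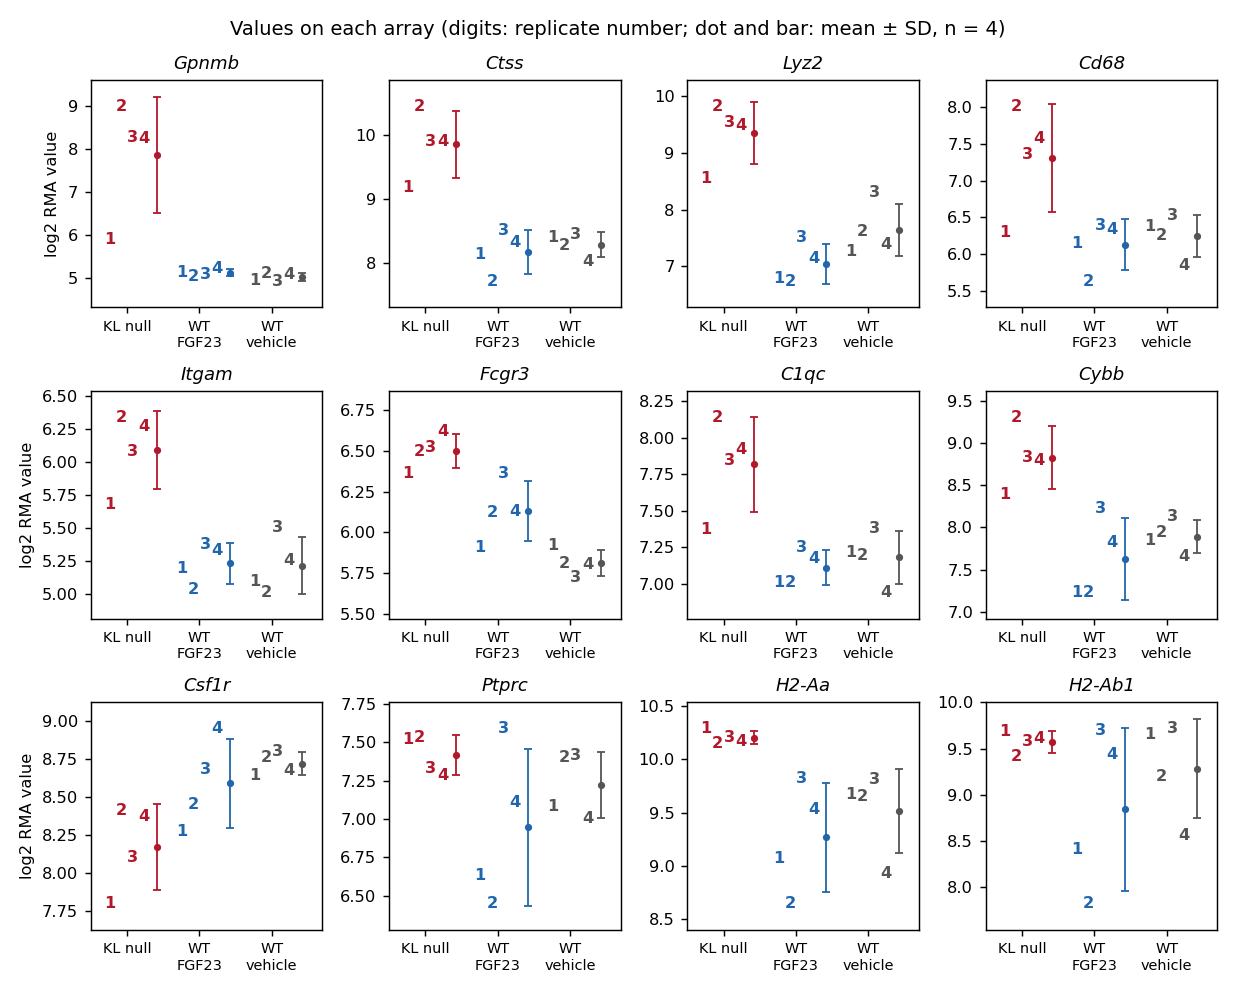
Log2 RMA value (vertical axis) of 12 of the genes on every array, with digits giving the replicate number and the dot and bar giving the mean ± SD of 4 arrays per group. KL null arrays lie above both wild-type groups for Gpnmb, Ctss, Lyz2, Itgam and Cybb, with replicate 1 the lowest of the KL null arrays in each, while Ptprc and H2-Ab1 overlap between groups and Csf1r is lower in KL null than in WT vehicle.

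Promoters of 2 genes that rose, picked after their values were seen, are shown because both hold a match to GAGGAA, a common core of sites for PU.1, the myeloid transcription factor encoded by Spi1. RefSeq promoters (GRCm38.p6, 250 bases before to 50 after the start) were found for 26 of the 36 genes. Capitals mark GAGGAA or its reverse complement TTCCTC. The Ctss window is chr3:95526536-95526835 on the plus strand and the Itgam window chr7:128062390-128062689 on the plus strand.
Ctss: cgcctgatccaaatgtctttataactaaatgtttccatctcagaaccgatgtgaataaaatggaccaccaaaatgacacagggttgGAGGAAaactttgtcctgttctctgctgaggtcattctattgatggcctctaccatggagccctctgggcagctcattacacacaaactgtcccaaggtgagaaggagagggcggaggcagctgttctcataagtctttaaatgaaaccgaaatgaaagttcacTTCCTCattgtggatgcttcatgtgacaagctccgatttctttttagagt
Itgam: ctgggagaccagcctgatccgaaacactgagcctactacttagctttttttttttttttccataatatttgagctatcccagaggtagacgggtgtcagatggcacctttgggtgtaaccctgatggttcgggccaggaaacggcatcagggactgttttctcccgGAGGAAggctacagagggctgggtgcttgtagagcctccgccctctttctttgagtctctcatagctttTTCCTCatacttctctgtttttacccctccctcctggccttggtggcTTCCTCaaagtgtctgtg
GAGGAA was found on either strand in 14 of the 26 promoters and in 28.3% of 27025 promoters of this length. Of the genes that rose, Ctss, Itgam, Cd68, Fcgr3, C1qb, C1qc and Cybb held it. Itgax, Lyz2, Fcer1g, Ncf1, Mpeg1, Cd163, Lgals3 and Gpnmb, which also rose, did not. Of the genes that did not pass, Ptprc, Mrc1, Fcgr1, Fcgr4, Aif1, Laptm5 and Trem2 held it, and Fcgr2b, Ly86, H2-Aa and H2-Eb1 did not. A link between this motif and the differences was not tested. The E-box letters CACGTG and CATGTG of the lysosomal regulators TFEB and MITF were found in 0 and 5 of the 26, against 7.24% and 14.1%. The windows of Gpnmb and Lyz2, which had the largest differences of the 36, held none of the 3 motifs. These are matches of letters, not sites shown to be bound.

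Among the Fc receptors and their adaptors, 3 of 6 rose. Fcgr3, the activating low-affinity receptor for IgG, was at 6.36, 6.50, 6.52 and 6.62 in KL null replicates 1 to 4. It was at 5.91, 6.12, 6.36 and 6.13 in the WT FGF23 and 5.92, 5.81, 5.72 and 5.80 in the WT vehicle replicates. The KL null arrays were close together and all above WT vehicle, and replicate 1 was level with WT FGF23 replicate 3, with a 1.61-fold difference (log2 0.69, SE 0.0969, adjusted p = 0.000575). Fcer1g and Tyrobp encode the transmembrane adaptors FcR gamma and DAP12, whose cytoplasmic tyrosine motifs recruit the kinase SYK. Fcer1g rose 1.48-fold, at 7.88 ± 0.25 in KL null and 7.31 ± 0.10 in WT vehicle arrays (n = 4, limma adjusted p = 0.00801). Tyrobp rose 1.53-fold, at 6.77 ± 0.26 in KL null and 6.16 ± 0.23 in WT vehicle arrays (limma adjusted p = 0.0136), a call lost without WT vehicle replicate 1 (0.0529).

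Fcgr2b, the only inhibitory IgG receptor of the family, had the opposite sign. It was at 7.94, 7.87, 7.76 and 7.44 in KL null replicates 1 to 4, against 8.28, 7.93, 8.36 and 8.02 in the WT vehicle replicates, which overlap at replicate 1 (log2 difference -0.40, SE 0.126). Its limma adjusted p was 0.0687 over all arrays, 0.0477 without WT vehicle replicate 2 and 0.0478 without KL null replicate 1. With all arrays kept it also passed with median centring (0.0339) and trended and robust moderation (0.0422). The same held with array quality weights (0.0152) and the replicate block (0.0429). Fcgr2b passed in 7 of 24 alternatives. Fcgr1, the high-affinity IgG receptor, was at 6.08 ± 0.21 in KL null and 5.76 ± 0.22 in WT vehicle arrays (n = 4, limma adjusted p = 0.132). Fcgr4, another activating receptor, was at 5.85 ± 0.17 in KL null and 5.94 ± 0.24 in WT vehicle arrays (adjusted p = 0.862), with a sign that turned when array spread was a covariate. Neither passed. Fcgr2b and Fcgr3 have closely similar extracellular parts, and how far their probe sets cross-react was not tested.

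The 3 chains of C1q, the recognition molecule of the classical complement pathway that tissue macrophages secrete, moved together. C1qa, C1qb and C1qc were 1.52-fold, 1.58-fold and 1.56-fold higher in KL null (adjusted p = 0.0306, 0.0183 and 0.0112). C1qc was at 7.37, 8.14, 7.84 and 7.92 in KL null replicates 1 to 4, against 7.21, 7.19, 7.38 and 6.94 in the WT vehicle replicates, so replicate 1 lay at the top of the WT vehicle range and the other 3 above it. C1qc kept its call with any 1 array left out. C1qb lost it without WT vehicle replicate 1 (0.0566) and KL null replicate 2, 3 or 4 (0.0633, 0.0542 and 0.0504), and C1qa without WT vehicle replicate 1, 2 or 4 (0.0712, 0.0825 and 0.0752) and KL null replicate 2, 3 or 4 (0.0969, 0.0678 and 0.076).

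Of the 5 uptake and sensing receptors, 2 rose. Msr1, the class A scavenger receptor for modified lipoproteins, was at 4.28, 5.03, 4.38 and 4.39 in KL null replicates 1 to 4 and at 3.69, 3.87, 4.02 and 3.95 in the WT vehicle replicates, 1.56-fold higher with no overlap (adjusted p = 0.0117). Cd163, the haemoglobin-haptoglobin receptor, was at 4.50, 4.80, 4.72 and 4.89 in KL null against 4.03, 4.46, 4.14 and 4.14 in WT vehicle arrays (1.45-fold, adjusted p = 0.0377). WT FGF23 replicate 1 reached 4.86 for Cd163, inside the KL null range. Msr1 and Cd163 lay below the array medians of 6.15 to 6.29 on every array, and neither was tested against background. The Cd163 call was lost without WT vehicle replicate 1, 3 or 4 (0.116, 0.101 and 0.0753) and KL null replicate 2, 3 or 4 (0.0944, 0.0878 and 0.0952).

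Mrc1, the mannose receptor, was at 5.86, 6.84, 7.16 and 7.36 in KL null replicates 1 to 4, against 5.96, 6.19, 6.14 and 5.98 in the WT vehicle replicates. Replicate 1 was below every WT vehicle array and the other 3 above all of them (log2 difference 0.74, adjusted p = 0.0616, and 0.000191 without KL null replicate 1). Cd14, the co-receptor for bacterial lipopolysaccharide, was at 5.70, 6.50, 6.35 and 6.63 in KL null against 5.86, 5.80, 5.82 and 5.87 in WT vehicle arrays, the same arrangement (log2 difference 0.46, adjusted p = 0.136, and 0.009 without KL null replicate 1). Trem2, a lipid receptor that signals through DAP12, was at 6.47 ± 0.21 in KL null and 6.11 ± 0.12 in WT vehicle arrays (n = 4, limma adjusted p = 0.075, and 0.0442 without KL null replicate 4).

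The phagocyte NADPH oxidase makes superoxide in the phagosome from a membrane core and cytosolic subunits, and 2 of its 3 genes in the list rose. Cybb, the catalytic chain gp91phox of the core, was at 8.39, 9.31, 8.83 and 8.79 in KL null replicates 1 to 4. It was at 7.23, 7.23, 8.23 and 7.82 in the WT FGF23 and 7.84, 7.94, 8.13 and 7.66 in the WT vehicle replicates, and the KL null arrays were above all others (1.92-fold over WT vehicle, log2 difference 0.94, SE 0.215, adjusted p = 0.0147, and 0.0509 without KL null replicate 2). Cyba, the p22phox chain that pairs with Cybb in the core, is not among the 36 and is named here after its values were seen. It fell, at 10.72, 10.53, 10.33 and 10.44 in KL null replicates 1 to 4 against 10.89, 10.78, 10.96 and 10.78 in the WT vehicle replicates (1.27-fold lower, adjusted p = 0.0352). The call of Cyba was lost without WT vehicle replicate 1 or 3 (0.0975 and 0.114) or KL null replicate 2, 3 or 4 (0.07, 0.121 and 0.0835). Which cells of the kidney the Cyba signal came from was not tested, so its fall cannot be placed in phagocytes. Ncf1, the cytosolic organiser p47phox, was at 6.02 ± 0.12 in KL null and 5.62 ± 0.08 in WT vehicle arrays, 1.32-fold higher (n = 4, limma adjusted p = 0.0257). Its call was lost without WT vehicle replicate 1 or 4 (0.0807 and 0.06) and KL null replicate 2 or 3 (0.0817 and 0.0765). Ncf4, the subunit p40phox, was at 5.09 ± 0.04 in KL null and 5.06 ± 0.18 in WT vehicle arrays (n = 4, limma adjusted p = 0.904), a difference whose sign turned under further quantile normalization, median centring, the spread covariate and without WT vehicle replicate 4.

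Of the 7 genes grouped as lineage 0 rose and 1 fell, and the myeloid markers Cd68, Itgam and Lyz2 are grouped elsewhere. Csf1r, the receptor for the macrophage growth factors CSF1 and IL-34, was at 7.80, 8.41, 8.10 and 8.37 in KL null replicates 1 to 4. It was at 8.27, 8.45, 8.68 and 8.95 in the WT FGF23 and 8.64, 8.76, 8.80 and 8.67 in the WT vehicle replicates. All KL null arrays were below all WT vehicle arrays but overlapped the WT FGF23 arrays (1.46-fold lower than WT vehicle, log2 difference -0.55, SE 0.146, adjusted p = 0.0321). Csf1r was lower in KL null under all 24 alternatives (log2 -0.63 to -0.42) and passed in 16. It did not pass without WT vehicle replicate 1, 2, 3 or 4 (adjusted p = 0.0637, 0.0686, 0.0942 and 0.0516) or KL null replicate 1 or 3 (0.074 and 0.0911).

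Ptprc, which encodes CD45 on nearly all white blood cells, was at 7.52, 7.53, 7.33 and 7.28 in KL null replicates 1 to 4. It was at 6.63, 6.45, 7.59 and 7.11 in the WT FGF23 and 7.08, 7.40, 7.41 and 7.0 in the WT vehicle replicates, so that all groups overlapped (KL null minus WT vehicle 0.19, adjusted p = 0.644). Adgre1, an adhesion receptor used as a macrophage marker, was at 6.70 ± 0.22 in KL null and 6.45 ± 0.27 in WT vehicle arrays (n = 4, limma adjusted p = 0.444). Spi1, encoding PU.1, was at 5.39 ± 0.07 in KL null and 5.20 ± 0.32 in WT vehicle arrays (n = 4, limma adjusted p = 0.49), and Aif1, the actin-bundling protein IBA1, at 4.96 ± 0.19 in KL null and 4.89 ± 0.25 in WT vehicle arrays (adjusted p = 0.828, with a sign that turned under further quantile normalization and without KL null replicate 3).

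The lysosomal protein gene Laptm5, grouped here as lineage, did not pass either (log2 difference 0.43, adjusted p = 0.134). It did with array spread as a covariate (0.0254). Ly86, which encodes MD-1, the partner of the toll-like receptor homologue RP105, was above WT vehicle in all 4 KL null arrays at 8.04, 7.77, 8.15 and 7.97, against 7.51, 7.55, 7.59 and 7.33 in the WT vehicle arrays (adjusted p = 0.104). It passed without WT FGF23 replicates 1 and 2 (0.00659), where Ly86 was at 6.96 and 6.79 against 7.70 and 7.66 in replicates 3 and 4, since all 3 groups share the estimate of spread. Ly86 also passed with array spread as a covariate (0.013), array quality weights (0.0397) and only the 2 groups compared (0.0123). For Ptprc, Adgre1, Spi1, Aif1, Fcgr1, Fcgr4, Ncf4, Cd74 and H2-Ab1 no alternative gave a call, and a p above the threshold does not show that their levels were alike.

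**Figure D3:**
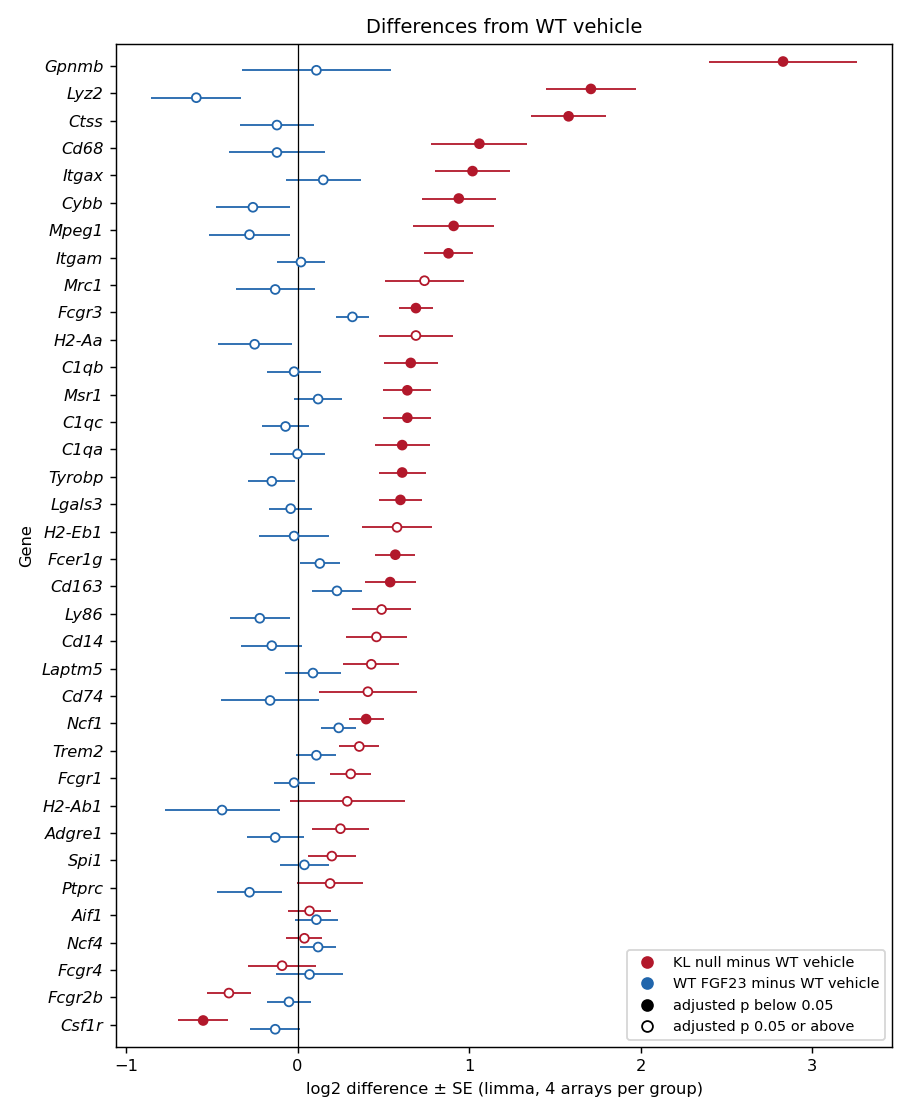
Log2 difference from WT vehicle ± SE (horizontal axis, limma, 4 arrays per group) for the 36 genes, ordered by KL null minus WT vehicle in red, with WT FGF23 minus WT vehicle in blue. Filled points have an adjusted p below 0.05: 18 KL null points to the right of 0, Csf1r to the left, and 0 FGF23 points.

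The 4 class II genes in the list had positive differences in KL null and 0 of them passed. They are H2-Aa, the alpha chain of I-A, H2-Ab1, its beta chain, H2-Eb1, the beta chain of I-E, and Cd74, the invariant chain that guides class II to the endosome. H2-Aa and H2-Eb1 passed under some alternatives, given below. Promoters were found for H2-Aa and H2-Eb1, which are shown because both hold CTGATTGG, the Y box that NF-Y reads in class II promoters and that contains ATTGG, the reverse complement of CCAAT. Capitals mark the Y box. The H2-Aa window is chr17:34287774-34288073 on the minus strand and the H2-Eb1 window chr17:34305617-34305916 on the plus strand, both of GRCm38.p6.
H2-Aa: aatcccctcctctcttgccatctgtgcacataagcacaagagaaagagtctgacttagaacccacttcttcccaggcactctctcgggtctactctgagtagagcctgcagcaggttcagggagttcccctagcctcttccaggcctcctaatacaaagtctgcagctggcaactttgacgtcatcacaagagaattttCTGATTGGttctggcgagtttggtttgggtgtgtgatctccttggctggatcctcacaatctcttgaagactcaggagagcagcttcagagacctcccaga
H2-Eb1: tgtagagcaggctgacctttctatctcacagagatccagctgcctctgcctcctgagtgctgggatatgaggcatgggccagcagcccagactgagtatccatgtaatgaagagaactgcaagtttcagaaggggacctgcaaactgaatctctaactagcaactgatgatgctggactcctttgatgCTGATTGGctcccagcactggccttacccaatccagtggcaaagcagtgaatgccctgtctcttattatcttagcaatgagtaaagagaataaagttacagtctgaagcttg
The 8 letters, read on both strands, were found in 4.31% of 27025 promoters and in 2 of the 26 of this list, and CCAAT alone in 37.9% and in 11 of 26.

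H2-Aa was at 10.29, 10.15, 10.20 and 10.17 in KL null replicates 1 to 4. It was at 9.07, 8.65, 9.82 and 9.53 in the WT FGF23 and 9.67, 9.65, 9.81 and 8.93 in the WT vehicle replicates. The KL null arrays were above all others and nearly level, while the wild-type arrays were spread out (log2 difference from WT vehicle 0.69, SE 0.216, adjusted p = 0.065). H2-Aa passed without WT FGF23 replicate 2 (0.0312) or 3 (0.0385) and without replicates 1 and 2 together (0.0163). It also passed with array spread as a covariate (0.0192), further quantile normalization (0.0402), array quality weights (0.0382) and only the 2 groups compared (0.0228).

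H2-Ab1 was at 9.69, 9.41, 9.58 and 9.61 in KL null replicates 1 to 4. It was at 8.40, 7.82, 9.70 and 9.44 in the WT FGF23 and 9.65, 9.20, 9.72 and 8.56 in the WT vehicle replicates, so the KL null arrays lay within the WT vehicle range (log2 difference 0.29, adjusted p = 0.701). Cd74 was at 9.59 ± 0.16 in KL null, 9.03 ± 0.66 in WT FGF23 and 9.19 ± 0.57 in WT vehicle arrays (n = 4 each, limma adjusted p for KL null against WT vehicle = 0.473). H2-Eb1 was at 9.68 ± 0.09 in KL null, 9.08 ± 0.40 in WT FGF23 and 9.10 ± 0.45 in WT vehicle arrays (n = 4 each, limma adjusted p = 0.0976, and 0.0497 without WT vehicle replicate 3). The SD of the 4 genes was 0.06 to 0.16 in KL null, 0.40 to 0.88 in WT FGF23 and 0.40 to 0.57 in WT vehicle arrays, with WT FGF23 replicates 1 and 2 and WT vehicle replicate 4 the low ones.

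The arrays within a group differed for the list as a whole. KL null replicate 1 was the lowest of its group for 25 of the 36 genes (69.4%), against 26.4% of all genes, and replicate 2 the highest for 24 (66.7%), against 24.9%. In 9 of the 36 genes replicates 2 to 4 were above all WT vehicle arrays and replicate 1 was not, against 4.58% of all genes. Among the WT vehicle arrays replicate 3 was the highest for 29 of the 36 genes (80.6%), against 24.1% of all genes, and replicate 4 the lowest for 20 (55.6%), against 30.3%. The mean deviation of the 36 genes from their WT vehicle means was 0.28, 0.83, 0.63 and 0.64 in KL null replicates 1 to 4, against -0.02, 0.01, 0.22 and -0.21 in WT vehicle replicates 1 to 4. Leaving out KL null replicate 1 gave 20 higher calls of 36, where 4.35% of all genes rose, and leaving out KL null replicates 1 and 2 gave 17, where 3.07% rose. Without KL null replicates 1 and 2 the calls of Csf1r (adjusted p = 0.0988), C1qa (0.0552), Ncf1 (0.0809) and Cd163 (0.072) were lost, and Mrc1 (0.000149), Cd14 (0.0331) and Fcgr2b (0.0461) passed. The count of higher calls was 24 with array spread as a covariate (4.94% of all genes) and 23 with array quality weights (7.01%). With the covariate, Mrc1 (adjusted p = 0.0108), Cd14 (0.00578), Ly86 (0.013), Laptm5 (0.0254), H2-Aa (0.0192) and H2-Eb1 (0.0233) were added. The count was 11 without WT vehicle replicate 1 (1.77% of all genes), 11 without KL null replicate 2 (2.18%) and 8 in a linear model without moderation (2.43%). Those 8 were Itgam, Lyz2, Fcer1g, Fcgr3, C1qc, Lgals3, Gpnmb and Ctss, which passed under every alternative run.

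FGF23 against WT vehicle asks whether any of these genes responds within 1 hour of the hormone. By limma 0 of 36 passed, and 3 had an unadjusted p below 0.05, which 15.4% of all genes had. They were Fcgr3 (log2 difference 0.32, adjusted p = 0.241), Ncf1 (0.24, 0.299) and Lyz2 (-0.59, 0.305). The differences ran from -0.59 to 0.32 with a median of -0.03, and the groups overlapped in each of the 36, where 4.09% of all genes had all WT FGF23 arrays above and 2.92% all below WT vehicle. Also 0 passed in any of the 24 alternatives, the unmoderated linear model among them.

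The WT FGF23 arrays fell into 2 pairs for this list. Replicates 1 and 2 were both below replicates 3 and 4 in 24 of the 36 genes (66.7%), against 19% of all genes, and both above them in 4 (11.1%), against 36.4%. The mean deviation of the class II genes from WT vehicle was -0.56, -0.89, 0.41 and 0.18 in WT FGF23 replicates 1 to 4, against 0.22, 0.03, 0.43 and -0.68 in the WT vehicle replicates. WT FGF23 replicates 1 and 2 are the arrays of lowest spread, and the part of spread in this was not tested. Without them the median difference after FGF23 was 0.12, with 28 of 36 positive in place of 15, and with array spread as a covariate 0.14, also with 28 positive, and 0 passed in either.

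Other genes of the same pathways were read from lists of related genes, for KL null against WT vehicle. Over all genes 3.58% rose and 4.44% fell. In lists this short, 0 or 1 call in a direction is near those shares and says little about the list. Of 21 genes of ITAM and phagocyte signalling 5 rose and 2 fell (median log2 difference 0.16), with the smallest p in Clec5a, a DAP12-coupled lectin (1.56-fold, adjusted p = 0.000477), Clec4n, the lectin dectin-2 (1.60-fold, 0.00866), and Itgb2. Of 18 lysosomal and lipid-handling macrophage genes 4 rose and 3 fell (median 0.08). Mmp12, the macrophage elastase, was at 7.88, 10.42, 9.74 and 9.43 in KL null replicates 1 to 4, against 6.18, 6.44, 5.96 and 6.31 in the WT vehicle replicates (8.85-fold, adjusted p = 8.75e-05). As for Gpnmb, KL null replicate 1 was the lowest of its group and above WT vehicle. Apoe, the lipid carrier that macrophages and tubules make, rose 2.37-fold (adjusted p = 2.9e-05) and Acp5, the acid phosphatase TRAP, fell 1.61-fold (adjusted p = 0.000373).

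Of 18 genes of monocytes and inflammatory macrophages 4 rose and 0 fell (median 0.17). Ccr2, the receptor by which monocytes leave the marrow and enter tissue, was at 6.47, 6.38, 6.83 and 6.54 in KL null replicates 1 to 4. It was at 5.54, 4.67, 5.92 and 5.27 in the WT FGF23 and 5.11, 5.77, 5.87 and 5.10 in the WT vehicle replicates, below every KL null array (2.13-fold, adjusted p = 0.00918). Tlr2, a receptor for bacterial lipoproteins, rose 1.55-fold (0.00377) and Cd44, the hyaluronan receptor, 1.64-fold (0.00517). Of 20 resident macrophage genes 1 rose and 0 fell (median 0.12). It was Ms4a7 (1.34-fold, adjusted p = 0.0336), a call lost without WT vehicle replicate 1, 2 or 4 (0.103, 0.0608 and 0.0727) or KL null replicate 2 or 3 (0.0909 and 0.0972). F13a1, a coagulation transglutaminase (log2 difference 0.50, adjusted p = 0.0543), and Axl, a receptor kinase for apoptotic cells (0.44, 0.0558), did not pass over all arrays. Both passed without KL null replicate 1 (0.0476 and 0.019), and F13a1 also without WT FGF23 replicate 1 or 4 (0.035 and 0.0344).

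Of 17 other genes of class II processing and co-stimulation 1 rose and 0 fell (median 0.06), the lysosomal thiol reductase Ifi30 (1.33-fold, adjusted p = 0.0269). Its call was lost without WT vehicle replicate 1, 2 or 4 (0.0612, 0.0742 and 0.0539) and without KL null replicate 2, 3 or 4 (0.0817, 0.0801 and 0.0714). The co-stimulator Cd86 (log2 difference 0.55, adjusted p = 0.0647) and the peptide-loading chain H2-DMa (0.36, 0.079) did not pass. They did without KL null replicate 1 (0.00964 for Cd86) and without WT vehicle replicate 3 (0.0218 for H2-DMa). The class II transactivator Ciita, which switches on the genes above, was at 6.07 ± 0.17 in KL null and 5.92 ± 0.23 in WT vehicle arrays (n = 4, limma adjusted p = 0.528), and is named here after its values were seen. Of 17 class I presentation genes 1 rose, the proteasome activator Psme1 (1.25-fold, 0.0319), and 1 fell, the chaperone Calr (1.32-fold lower, 0.0173), with a median of -0.01. The chaperone Pdia3 did not pass (log2 difference -0.36, adjusted p = 0.054, against 0.0443 without WT FGF23 replicate 2 and 0.0378 without KL null replicate 4). The calls of Psme1 and Calr were both lost without WT vehicle replicate 1 (0.098 and 0.0687), WT vehicle replicate 3 (0.0673 and 0.0663) or KL null replicate 3 (0.105 and 0.0661), and that of Psme1 also without WT vehicle replicate 4 (0.0814) or KL null replicate 1 or 2 (0.0615 and 0.05). Of 16 myeloid transcription factors and growth factor receptors, Runx1 rose (1.31-fold, 0.0462) and Nr1h3, the liver X receptor alpha, fell (1.52-fold lower, 0.00401), and the call of Runx1 was lost without any 1 WT FGF23 array (0.0537 to 0.0593), WT vehicle replicate 1 or 4 (0.152 and 0.114) or KL null replicate 2, 3 or 4 (0.134, 0.0752 and 0.106). Cebpa did not pass (log2 difference -0.37, adjusted p = 0.0528), but did without WT FGF23 replicate 1 (0.0371) or KL null replicate 1 or 4 (0.0493 and 0.0356).

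Markers of other cell types were read beside these results. The shares over all genes were 3.58% higher and 4.44% lower, so 0 or 1 call in such a short list is near them. Of 14 neutrophil genes 0 passed in either direction by limma, with 0 at an unadjusted p below 0.05 and array means of 4.15 to 4.47 in KL null, 4.28 to 4.51 in WT FGF23 and 4.16 to 4.34 in WT vehicle arrays. Their smallest p-values were those of the granule protein genes Elane and Ltf and of Retnlg (adjusted p = 0.256, 0.408 and 0.501). Of 21 T and NK cell genes 1 rose, Il7r, the IL-7 receptor alpha chain (2.64-fold, adjusted p = 0.00219), with array means of 4.78 to 5.10 in KL null, 4.88 to 5.06 in WT FGF23 and 4.66 to 4.90 in WT vehicle arrays. Cd247, the zeta chain of the T cell receptor complex (log2 difference 0.25, adjusted p = 0.205), and the co-stimulator Icos (0.22, 0.249) did not pass. The means of the neutrophil and the T and NK cell lists lay below the array medians of 6.15 to 6.29. So did those of the monocyte, resident macrophage, dendritic cell, B and plasma cell, and mast cell and megakaryocyte lists. No probe set was tested against background.

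Of 13 B and plasma cell genes and 10 genes of mast cells and megakaryocytes 0 passed by limma, with 4 and 0 at an unadjusted p below 0.05. The smallest p-values were those of Cd37, Cd79a and Fcrla (log2 differences 0.46, -0.31 and 0.30, adjusted p = 0.0664, 0.145 and 0.164) and of Kit, Fcer1a and Itga2b (-0.18, 0.11 and 0.11, adjusted p = 0.374, 0.596 and 0.644). Cd37 passed without WT vehicle replicate 2 (0.0492) or KL null replicate 4 (0.0331). Of 12 dendritic cell genes 0 rose and 1 fell, Fscn1, the actin bundler fascin (1.27-fold lower, adjusted p = 0.0143, and 0.0518 without WT vehicle replicate 3). Clec9a and Zbtb46 did not pass (log2 differences -0.44 and 0.20, adjusted p = 0.106 and 0.208). Of 15 kidney epithelial genes 0 rose and 5 fell, against 4.44% of all genes that fell. Their median was -0.23, with array means of 10.38 to 10.55 in KL null, 10.52 to 10.69 in WT FGF23 and 10.57 to 10.79 in WT vehicle arrays. Lrp2 and Cubn, the endocytic receptors megalin and cubilin of the proximal tubule, were 1.42-fold and 1.31-fold lower (adjusted p = 0.00175 and 0.019), and Podxl of podocytes 1.29-fold lower (0.027). The call of Cubn was lost without WT vehicle replicate 3 (0.0728) or KL null replicate 3 (0.0608), and that of Podxl without WT vehicle replicate 1 or 3 (0.078 and 0.091) or KL null replicate 1, 2 or 3 (0.0595, 0.0502 and 0.0557).

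Of 14 genes of endothelium and fibroblasts 1 rose, Dcn, the matrix proteoglycan decorin, at 10.29 in KL null replicate 1 and 11.06 to 11.18 in the other 3 (1.81-fold, adjusted p = 0.0152). Its call was lost without KL null replicate 2 or 3 (0.0538 for each). Cdh5, the endothelial cadherin, and Lum, the proteoglycan lumican, did not pass (log2 differences -0.32 and 0.50, adjusted p = 0.073 and 0.101). Lum passed without KL null replicate 1 (0.0136) and Cdh5 without WT FGF23 replicate 1 (0.0397). Without KL null replicates 1 and 2 the calls of Itgb2 (0.0511), Psme1 (0.102), Calr (0.0665), Ms4a7 (0.0807), Runx1 (0.114), Fscn1 (0.0783), Cubn (0.0502) and Podxl (0.143) were lost. The part of these other cells in the differences of the 36 genes was not tested. After FGF23, 0 genes passed in any of these lists, against 0.0853% of all genes.

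**Figure D4:**
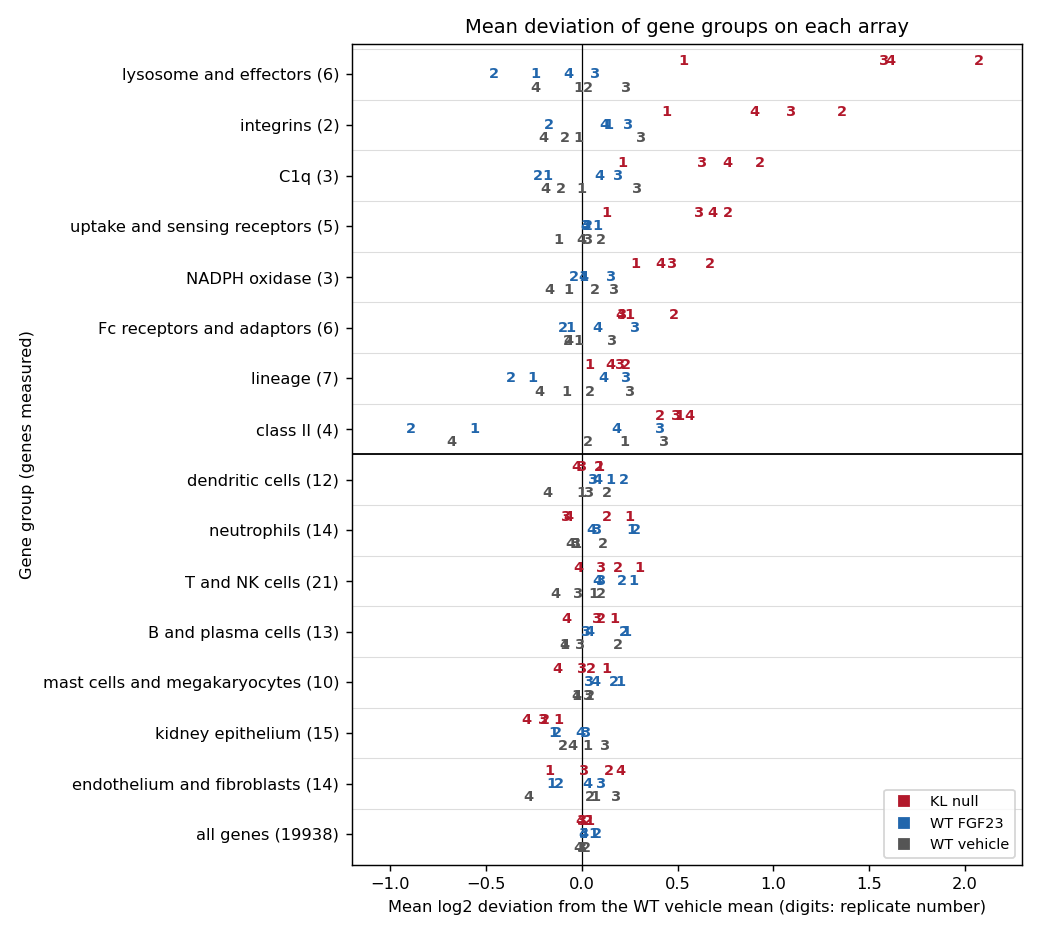
Mean log2 deviation from the WT vehicle mean (horizontal axis) of 8 functional groups of the 36 genes, above the line, and of marker lists of other cells and all genes, below it, with the number of genes in brackets. Each digit is 1 array, by replicate number, coloured by group. KL null arrays stand to the right for lysosomal and effector genes, at 0.53, 2.07, 1.58 and 1.61 for replicates 1 to 4, and WT FGF23 replicates 1 and 2 and WT vehicle replicate 4 to the left for class II, at -0.56, -0.89 and -0.68.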

How the data were processed

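Total kidney RNA of 12 samples from female mice was read on Affymetrix whole-transcript arrays. The values the authors deposited are log2 signals, for which the submitters' processing notes name RMA and Partek 6.2. RMA corrects background, quantile-normalizes and compresses differences of dim probe sets. No probe set was tested against background, and precision is limited by the number of arrays. Of 28853 probe sets, 21789 had 1 gene symbol, 1621 several and 5443 none; those with 1 symbol gave 19938 genes, of which 999 had several probe sets. Each of the 36 genes had 1.

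Means of the 3 groups were fitted with limma 3.58.1 (R 4.3.3; 9 residual degrees of freedom), with Benjamini-Hochberg adjustment over all genes, and tested on simulated data. Named were the 36 genes, the 3 of smallest p in each other list, the 3 of the 36 with the smallest p after FGF23, and Kl; exceptions are marked. The members and lists were chosen with earlier results of these data known. Alternatives changed normalization, model, filter and arrays. Motifs were sought in RefSeq promoters.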

Additional observations from a re-analysis of the deposited data

Results flagged for a closer look

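In 7 of 237 groups of 4 arrays (2.95%), 2 of them among the 108 groups of the 36 genes, 1 array stood apart from the other 3 by Dixon's test, where chance gives about 1 group in 20. Among the 36 genes these were Msr1 in KL null replicate 2, at 5.03 against 4.28 to 4.39 in the other 3 KL null arrays, and Aif1 in WT vehicle replicate 3, at 5.26 against 4.76 to 4.79 in the other 3 WT vehicle arrays. In the other lists KL null replicate 1 stood apart for Ifi30 (9.08, others 9.42 to 9.49), Podxl (9.21, others 9.48 to 9.52) and Dcn (10.29, others 11.06 to 11.18). KL null replicate 2 stood apart for Itgb2 (7.39, others 6.60 to 6.67) and WT vehicle replicate 4 for Clec9a (4.16, others 4.74 to 4.82).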

How the results depend on the processing

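Results were recomputed under 24 alternatives, or 23 for the 14 named genes that the filter on low genes removed, Msr1 and Cd163 of the 36 among them. Of 2002 values of named genes under them, 1782 kept direction and side of the threshold, 130 lost the call, 81 gained it and 9 turned sign. For KL null against WT vehicle, 18 of the 36 genes rose. The number was 24 with array spread as a covariate, 23 with array quality weights, 8 in the unmoderated linear model and 11 to 20 with 1 array left out. The number that fell was 1, against 2 with median centring, trended and robust moderation, array quality weights or the replicate block, 0 in the unmoderated model, and 0 to 1 with 1 array left out. Over all genes 1598 passed, against 2852 with array quality weights and 828 to 1728 with 1 array left out (831 without WT vehicle replicate 1, 828 without WT vehicle replicate 3, 1003 without KL null replicate 2 and 856 without KL null replicate 3). After FGF23, 17 genes passed, against 9 with further quantile normalization, 5 with median centring, 11 with the spread covariate, 2 unmoderated, 7 with only the 2 groups compared, 6 with the replicate block, 8 without WT FGF23 replicates 1 and 2, 9 without KL null replicates 1 and 2, and 4 to 14 with 1 array left out. Signs turned for Fcgr4 with the spread covariate (0.02), Aif1 with further quantile normalization (-0.01) and without KL null replicate 3 (-0.01), and Ncf4 with further quantile normalization (-0.04), median centring (-0.02), the spread covariate (-0.01) and without WT vehicle replicate 4 (-0.03). Aif1, where WT vehicle replicate 3 stood apart, was at 0.19 without that array. Signs also turned for Retnlg (-0.08) and Itga2b (-0.04) without KL null replicates 1 and 2. The cause was not tested. Replicate numbers gave no clear pairing with the WT vehicle arrays. Of the same-numbered pairs, 1 of 4 of KL null and WT vehicle, and 2 of 4 of WT FGF23 and WT vehicle, correlated above 0.1. In each comparison 1 of 8 arrays correlated best with its own number. WT FGF23 and KL null, which were not compared, had correlations of 0.223, 0.143, 0.259 and 0.188 for the same numbers, all positive. Whether these 2 groups share a structure by number was not tested. The replicate block gave 1548 genes for KL null, with 20 of the 36 higher and 2 lower, adding Mrc1 (0.0448), Trem2 (0.0313) and Fcgr2b (0.0429).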
